A study of Mus musculus with 6 samples.

Results

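The receptor genes described here are Oxtr, the oxytocin receptor, and the receptors of the neuropeptides PACAP and VIP, Adcyap1r1, Vipr1 and Vipr2. They were selected by gene symbol, and all 4 were present among the 15176 genes of the deposited table. Oxtr and Adcyap1r1 were chosen because they were among the 6 genes called higher in Steap4AKO in the comparison of genotypes (of 15006 genes tested, 0.04%), and Vipr1 and Vipr2 because they belong to the receptor family of Adcyap1r1. Their differences between genotypes are therefore given as a description, with no test, and the calls of Oxtr and Adcyap1r1 depended on the processing.

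The tissue sequenced was, by its label, inguinal white fat (iWAT), which lies under the skin, taken from mice on a high-fat diet. The control group held 4 libraries from Steap4f/f mice, which carry a floxed Steap4 gene (replicates 1, 2, 5 and 6). The other group held 2 libraries (replicates 2 and 3) from Steap4AKO mice, whose adipocytes lack the gene. Both groups were on the same diet. The driver of the recombinase, the age and the sex are not given in the sources used here, nor whether each library came from a separate mouse, so that spreads between libraries may be technical. In bulk tissue, fewer cells of a type and less RNA per cell cannot be told apart.

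Oxytocin is a peptide hormone of the hypothalamus that acts on smooth muscle of the uterus, on myoepithelial cells of the mammary gland and on neurons, and adipocytes carry its receptor too. The oxytocin receptor is a class A G protein-coupled receptor that couples mainly to Gq, which activates phospholipase C and releases calcium from internal stores. PACAP and VIP act on class B receptors that couple mainly to Gs and raise cAMP, the second messenger that activates protein kinase A and, in adipocytes, lipolysis. The receptor encoded by Adcyap1r1 (PAC1) prefers PACAP, while those encoded by Vipr1 (VPAC1) and Vipr2 (VPAC2) bind both peptides.

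Oxtr and Adcyap1r1 both lie on chromosome 6 of GRCm38, 57.0 Mb apart. The bases before their first exons are shown because both genes were higher in both Steap4AKO libraries. For Oxtr, RefSeq places the start 118 bases inside the first exon of the GENCODE model, so only the 132 bases of the RefSeq promoter window that lie before both starts are shown (GRCm38.p6, chr6:112489944-112490075, minus strand). For Adcyap1r1 the 2 annotations give the same start, and the 250 bases before it are shown (GRCm38.p6, chr6:55451728-55451977, plus strand). Capitals mark matches, on either strand, to GGGCGG and CCAAT, which are the GC box and the CCAAT box, and the Oxtr stretch held neither.
Oxtr upstream: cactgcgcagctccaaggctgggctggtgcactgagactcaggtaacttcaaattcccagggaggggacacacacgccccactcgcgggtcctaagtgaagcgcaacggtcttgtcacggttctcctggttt
Adcyap1r1 upstream: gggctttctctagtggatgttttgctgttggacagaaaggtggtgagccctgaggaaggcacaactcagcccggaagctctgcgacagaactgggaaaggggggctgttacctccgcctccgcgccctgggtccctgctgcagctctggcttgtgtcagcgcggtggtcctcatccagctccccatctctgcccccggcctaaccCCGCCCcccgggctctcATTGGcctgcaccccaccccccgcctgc

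Over the whole RefSeq window of 300 bases, 250 before and 50 after the start, 8 short motifs were searched on both strands in the 4 receptor genes, all of which had a window. The E-box CACGTG was found in Oxtr, where it begins 43 bases before the RefSeq start, and in none of the other 3 windows, and 7.15% of 32851 windows held it. It directly follows a GC box without overlap, and the 30 bases around it (GRCm38.p6, chr6:112489851-112489880, minus strand, E-box in capitals) lie within the first exon of the GENCODE model.
Oxtr E-box site: cgggccccgcccCACGTGccacactttaaa

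A GC box was found in all 4 windows, with 1 match in Oxtr, 1 in Adcyap1r1, 4 in Vipr1 and 1 in Vipr2, and 35.7% of all windows held one. CCAAT was found in Adcyap1r1 and Vipr1 (37.4% of all windows). TGACG, the core of the cAMP response element, was found in Vipr1, where it overlaps a GC box by 1 base (20.8% of all windows). None of the 4 windows held the full element TGACGTCA (1.79% of all windows), TATAAA (13.6%), the palindromic oestrogen response element with a spacer of 3 bases (0.07%) or the direct repeat bound by nuclear receptors with a spacer of 1 base (0.0396%). Oxtr and Adcyap1r1 thus shared the GC box and no other of these motifs, and these matches describe letters and not bound sites.

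The normalized values summed to 16573560.6 in the lowest library, Steap4AKO replicate 2, and to 20547924.9 in the highest, Steap4f/f replicate 6. A single read was worth an estimated 1.43 in Steap4AKO replicate 2, the shallowest library by this estimate, and 0.994 to 1.183 in the other 5. The estimate was weakest in Steap4AKO replicate 2. There 34.4% of low values lay within 0.1 of a whole read, against 51.8 to 59.0% in the other 5. The targeted gene Steap4, a metalloreductase, was at 17017.9, 9417.2, 8310.0 and 8851.2 in the controls and at 8312.6 and 8013.6 in the Steap4AKO pair. It differed by a log2 difference of -0.35 (SE 0.29, limma adjusted p = 0.544), so that its transcript in whole tissue did not check the genotype labels. Steap4AKO replicate 2 stood apart, with a correlation of 0.828 to 0.851 with the Steap4f/f libraries over all tested genes, against 0.925 to 0.951 for replicate 3 (Pearson's r across genes of log2 values, which are not independent replicates). Markers of adipocytes were present in all libraries, with Fabp4, the fatty acid carrier of adipocytes, at 98388.9 in Steap4AKO replicate 2 and at 139969.7 or more in the other 5. Of 10 subcutaneous depot markers, 7 were below all controls in Steap4AKO replicate 2 and 4 in replicate 3, and 1 was above them in each. For such counts in a single library, here and below, the share over all genes was not computed. They therefore have no background to be set against. The 2 with the highest level, Hoxc8 and Thbd, had 949.3 and 1542.5 in replicate 2, against 1426.8 to 1763.6 and 1520.7 to 2955.2 in the controls, while Tbx15, named after its values were seen, had 1.4, against 660.8 to 1329.8. The epididymis gene Crisp1 had 8126.6 in Steap4AKO replicate 2 and at most 3.3 elsewhere. All 9 measured mesothelial and visceral depot markers and all 3 measured epididymis genes were above every control in this library. Whether its tissue label is right was not tested, and the values of the 2 Steap4AKO libraries are given separately throughout.

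Oxtr (ENSMUSG00000049112; chromosome 6, 112473683 to 112489943, minus strand) had normalized values of 147.2, 180.4, 352.7 and 258.7 in Steap4f/f replicates 1, 2, 5 and 6, and of 4093.2 and 1330.6 in Steap4AKO replicates 2 and 3. Both Steap4AKO libraries were above all Steap4f/f libraries, and the lower of them was 3.77 times the highest Steap4f/f library. The group means were 234.8 ± 91.5 (SD, n = 4) and 2712 ± 1953 (SD, n = 2), an 11.6-fold difference, and the log2 difference, of means of log2(value + 1), was 3.39. The 2 Steap4AKO libraries differed from each other by 3.08-fold, more than the 2.4-fold range within Steap4f/f. Against the Steap4f/f mean of log2 values, replicate 2 stood at 4.2 and replicate 3 at 2.58. Of the 15006 genes tested, 0.726% had a larger log2 difference.

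Adcyap1r1 (ENSMUSG00000029778; chromosome 6, 55451978 to 55501451, plus strand) was at 276.3, 368.7, 358.5 and 299.4 in the 4 controls and at 804.0 and 711.2 in Steap4AKO replicates 2 and 3. The groups did not overlap, and the lower Steap4AKO library was 1.93 times the highest Steap4f/f library. The means were 325.7 ± 45.0 (SD, n = 4) and 757.6 ± 65.6 (SD, n = 2), a 2.33-fold difference and a log2 difference of 1.22. Unlike the values of Oxtr, those of Adcyap1r1 in the 2 Steap4AKO libraries lay within 1.13-fold of each other, and those in Steap4f/f spanned 1.33-fold. The log2 difference was 1.31 in replicate 2 and 1.13 in replicate 3, and 6.08% of the genes tested had a larger one.

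The VIP receptors were near the lower end of the table. Vipr2 (ENSMUSG00000011171; chromosome 12, 116077726 to 116146261, plus strand) reached 9.9, 13.4, 15.8 and 3.8 in the controls and 37.3 and 25.2 in Steap4AKO replicates 2 and 3. The groups did not overlap, with means of 10.7 ± 5.25 (SD, n = 4) and 31.2 ± 8.56 (SD, n = 2) and a log2 difference of 1.58. At the estimated value of 1 read in each library these values stand for about 3.53 to 13.4 reads in Steap4f/f. In Steap4AKO they stand for about 26.1 and 25.3 reads, the former resting on the weaker estimate for replicate 2. Counting error alone is therefore large. Vipr2 overlaps the antisense gene Gm20658, which was not analysed here, and whether the counting used strand was not given in the sources used here.

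Vipr1 (ENSMUSG00000032528; chromosome 9, 121642716 to 121672954, plus strand) reached 3.3, 12.7, 13.9 and 6.2 in the controls and 37.2 and 8.6 in Steap4AKO replicates 2 and 3. Replicate 2 was above every control and replicate 3 lay among the controls, so that the groups overlapped. The means were 9.01 ± 5.13 (SD, n = 4) and 22.9 ± 20.2 (SD, n = 2). The log2 difference of 1.11 was 2.11 in replicate 2 and 0.12 in replicate 3, and it rests on replicate 2, being 0.12 without that library. All 4 receptor genes had a mean of at least 10 over the 6 libraries, the limit for testing, but the Steap4f/f mean of Vipr1 alone was below it.

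**Figure D1:**
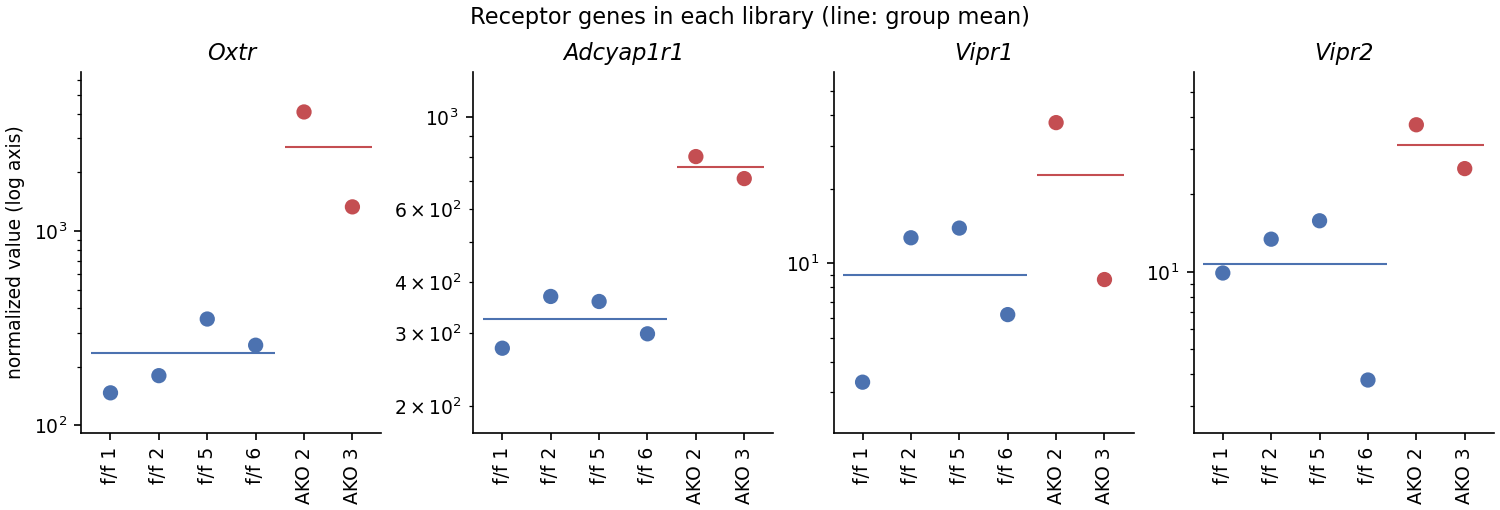
Normalized values of the 4 receptor genes in each library, on log axes that differ between panels, with Steap4f/f (f/f) in blue and Steap4AKO (AKO) in red. Lines are group means. Both Steap4AKO libraries lie above all Steap4f/f libraries for Oxtr, Adcyap1r1 and Vipr2, and for Vipr1 replicate 3, at 8.6, lies among the controls.

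In all, 3 of the 4 receptor genes had both Steap4AKO libraries above all controls, and 14.1% of all genes tested were higher in this way. This count follows from how the genes were chosen and carries no further weight.

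Levels of the receptor genes were compared with each other per kilobase of merged exons (4.79 kb for Oxtr, 6.60 for Adcyap1r1, 5.80 for Vipr1 and 4.46 for Vipr2). In Steap4f/f, Adcyap1r1 and Oxtr stood level, at 49.3 ± 6.81 and 49.0 ± 19.1 normalized counts per kb (SD, n = 4), and their order differed between libraries. The ratio of Oxtr to Adcyap1r1 was 0.734, 0.674, 1.36 and 1.19 in the controls. In Steap4AKO replicates 2 and 3 this ratio was 7.02 and 2.58, with Oxtr at 855 and 278 per kb and Adcyap1r1 at 122 and 108 per kb. Oxtr was thus the most abundant transcript of the 4 in both Steap4AKO libraries.

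Vipr2 and Vipr1 came far below in the controls, at 2.41 ± 1.18 and 1.55 ± 0.884 per kb (SD, n = 4), and did not differ from each other beyond their spread. Per kb, Adcyap1r1 was 15.3 to 53.9 times Vipr2 in Steap4f/f and 14.6 and 19.1 times in Steap4AKO, so PAC1 was the main PACAP receptor transcript in each of the 6 libraries. Among all genes of the table with a length, ranked per kb, Oxtr stood at the 31.8 to 49.4 percentile in Steap4f/f and at the 94.4 and 81.1 percentile in Steap4AKO replicates 2 and 3. Adcyap1r1 stood at the 37.4 to 42.8 percentile in Steap4f/f and at the 62.0 and 59.4 percentile in Steap4AKO, while Vipr1 and Vipr2 stayed at or below the 11.4 percentile in every library.

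Libraries differed in their cell type markers, and these values stand beside the receptor values because several moved with them. The epididymis list, of which 3 of 10 genes were in the table, summed to at most 3.3 in Steap4f/f and to 9042.2 in Steap4AKO replicate 2, and all 3 genes (Crisp1, Adam7 and Spink8) were at 0 in replicate 3. The 9 measured mesothelial and visceral depot markers summed to 95.5 to 579.7 in Steap4f/f, 3333.4 in Steap4AKO replicate 2 and 64.0 in replicate 3, where Msln, Upk3b, Wt1 and Bnc1 were at 0. The 9 luminal and general epithelial markers summed to 258.0 to 365.3, 3134.6 and 443.5, and Epcam and Ehf were at 0 in replicate 3. The markers of these 3 lists were thus high in the library with the highest Oxtr. In Steap4AKO replicate 3, none of the 3 epididymis and none of the 9 mesothelial markers was above all controls. Of the 9 luminal and general epithelial markers, 3 were above all controls there and 1 was below. Their sum was above the controls, with Spint2 at 280.3 and Prlr at 112.6 making up most of it. Oxtr in that library was 3.77 times its highest control value and Adcyap1r1 was 1.93 times. The part of epididymal, visceral or epithelial tissue in the receptor values was not tested.

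The oxytocin receptor is also a receptor of contractile cells. The 10 smooth muscle and pericyte markers summed to 16793.9 to 35897.4 in Steap4f/f, 51527.2 in Steap4AKO replicate 2 and 24065.7 in replicate 3. Des, which had the highest mean of the 10, weighs on these sums. It had 3198.2 to 17680.5 in Steap4f/f, 3211.8 in replicate 2 and 1145.3 in replicate 3. Of the 10 markers, 8 were above all controls and 1 below in replicate 2, and 4 above and 2 below in replicate 3. Myh11, the smooth muscle myosin, named here after its values were seen, had 757.5 to 1357.1 in Steap4f/f, 15119.8 in replicate 2 and 1381.5 in replicate 3. Per 1000 of Myh11, Oxtr was at 179 to 311 in Steap4f/f, at 271 in Steap4AKO replicate 2 and at 963 in replicate 3. Relative to Myh11, Oxtr was thus within the controls in replicate 2 and above them in replicate 3. This depended on the marker. Relative to each of the 10 markers in turn, Oxtr was above all controls for 8 in replicate 2, the exceptions being Myh11 and Cnn1, and for all 10 in replicate 3. Adcyap1r1 was above all controls for 5 of the 10 markers in replicate 2, below all for 4 and within them for 1, and it was above all for each of the 10 in replicate 3. The part of smooth muscle in the result was not tested. Of the myoepithelial and basal epithelial list 6 of 10 genes were measured. They summed to 2082.1 to 2673.1, 4340.2 and 3098.8, with Itga6, an integrin that is not specific to these cells, making up most of the sum, and Krt5 and Krt17 were not among the genes of the table.

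The 10 adipocyte markers summed to 584595.4 to 713951.4 in Steap4f/f, 367504.7 in Steap4AKO replicate 2 and 585686.3 in replicate 3. Per 1000 of Adipoq, the gene of adiponectin, named after its values were seen, Oxtr was at 3.42 to 11.1 in the controls and at 187 and 36.4 in the Steap4AKO pair, and Adcyap1r1 at 6.42 to 11.3 against 36.8 and 19.4. Relative to each of the 10 adipocyte markers in turn, Oxtr was above all controls in both Steap4AKO libraries. Adcyap1r1 was above all controls in both for 9 of the 10, the exception being Lep, the gene of leptin, relative to which it was below all controls in replicate 2 and within them in replicate 3. The part of the number of adipocytes in the receptor values was not tested. Skeletal muscle markers went the other way, with sums of 121287.7 to 650456.7 in Steap4f/f, 2109.0 in Steap4AKO replicate 2 and 15200.8 in replicate 3. All 10 were lower without overlap, against 14.4% of all genes tested. Nerve and Schwann cell markers (9 of 10 measured) summed to 5100.9 to 14218.3, 1143.5 and 5914.7, and subcutaneous depot markers to 5991.3 to 7998.8, 3073.3 and 6453.9. The part of the muscle, nerve and depot differences in the receptor values was not tested.

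Immune cells are known carriers of VIP receptors, Vipr1 on T cells in particular. The 8 measured T and NK cell markers summed to 103.0 to 243.7 in Steap4f/f, 883.5 in Steap4AKO replicate 2 and 250.6 in replicate 3, and the 10 macrophage markers to 8301.6 to 9685.9, 28451.8 and 7931.9. In replicate 3 the T and NK cell sum was thus just above the controls and the macrophage sum just below them, while Vipr1 lay among the controls. All 3 were high in replicate 2, and the part of immune cells in this was not tested. Endothelial markers, at 25994.4 to 27662.4 in Steap4f/f and 27233.7 and 29886.1 in Steap4AKO, and markers of adipose stromal progenitors, at 32263.9 to 49854.6, 40475.3 and 35910.0, differed less between libraries.

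**Figure D2:**
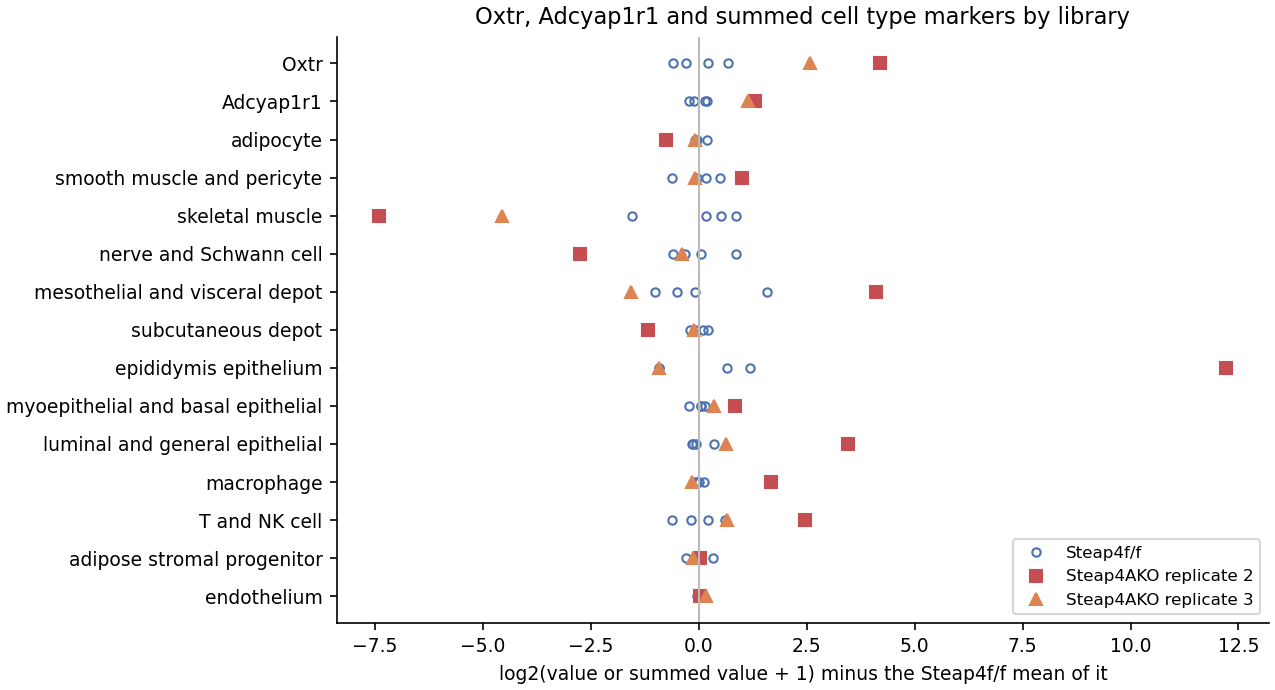
Log2(value + 1) of Oxtr and Adcyap1r1 and of the summed values of 13 marker lists, minus the Steap4f/f mean, with Steap4f/f libraries as open circles and the 2 Steap4AKO libraries as a square and a triangle. Epididymis, mesothelial and macrophage sums are above the controls in Steap4AKO replicate 2 and not in replicate 3, whereas Oxtr and Adcyap1r1 are above them in both. Both epithelial sums are also above them in both, but few of their markers are in replicate 3. There 1 of 6 myoepithelial and basal and 3 of 9 luminal and general epithelial markers are above all controls. The share of all genes above all controls in a single library was not computed.

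The ligands of these receptors were not among the genes of the table. Oxt, Avp, Adcyap1 and Vip, the genes of oxytocin, vasopressin, PACAP and VIP, and 6 others of the 18 genes listed as ligands or their processing enzymes had no row, and genes without a row were not analysed here. None of the 8 measured genes of this list passed the test in limma. At an unadjusted p under 0.05, 1 was higher (12.5%, against 8.45% of all genes tested). That gene was Pam, which amidates peptide hormones, oxytocin and PACAP among them. Its values were 1320.3, 1684.5, 1689.9 and 1596.5 in the controls and 4492.7 and 2660.5 in the Steap4AKO pair, a log2 difference of 1.14 (SE 0.22, limma adjusted p = 0.0658). The groups did not overlap for Pam, but the difference missed the threshold. Cd38, an ectoenzyme that hypothalamic neurons need to release oxytocin, had means of 391.3 ± 26.0 (SD, n = 4) and 511.2 ± 73.0 (SD, n = 2) without overlap (limma adjusted p = 0.287), and is named here after its values were seen. The means of Furin, a proprotein convertase, were 1.08-fold apart, and those of Cpe, a carboxypeptidase of prohormones, and Mme, the peptidase neprilysin, were at ratios of 0.916 and 0.940 of Steap4AKO to Steap4f/f with overlapping libraries.

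Of 18 other vasopressin receptors, class B receptors and their accessory proteins, 10 were measured and none passed the test in limma. Of the 10, 1 was higher and 1 lower at an unadjusted p under 0.05, against 8.45% and 9.66% of all genes tested. The median log2 difference of the 10 was -0.03, against 0.02 over all genes tested. Among the measured genes of this list with the highest level, Sctr, the secretin receptor, was at 414.2, 153.4, 151.8 and 357.7 in the controls and at 69.2 and 175.3 in the Steap4AKO pair (limma adjusted p = 0.317). Pth1r, the parathyroid hormone receptor, had 273.0 to 703.8 in Steap4f/f and 280.3 and 346.8 in Steap4AKO. Calcrl, the receptor of adrenomedullin and CGRP, had 263.9 to 410.5 against 632.3 and 391.8 (adjusted p = 0.247 in limma), and its partner Ramp2 had 1282.4 to 1561.9 against 1229.3 and 1724.8. Each of these 4 overlapped between groups. Crhr2, a receptor of urocortins that skeletal muscle expresses, is named after its values were seen as the only gene of the 10 without overlap. It had 53.8 to 187.3 in Steap4f/f and 11.4 and 13.9 in Steap4AKO (adjusted p = 0.0848 in limma). Of all genes tested, 14.4% were lower without overlap and 14.1% higher. Avpr1a, a vasopressin receptor that oxytocin can also bind, named after its values were seen, had 6.3 to 51.1 in Steap4f/f and 84.1 and 39.6 in Steap4AKO.

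Few genes of the surrounding pathways passed the test. Over the 5 lists of ligands, receptors, Gs and cAMP signalling, Gq and calcium signalling, and desensitisation, 112 of 130 genes were tested. None rose and 1 fell past the threshold in limma (background 0.04% higher and 0.433% lower), and 19 were higher and 6 lower at an unadjusted p under 0.05 (17.0% and 5.36%, against 8.45% and 9.66% of all genes tested). The pathway split was 12 higher and 5 lower without Steap4f/f replicate 1, and 9 and 5 without Steap4f/f replicate 2. Over all genes the split was 1087 and 1278 without Steap4f/f replicate 1 and 948 and 1107 without Steap4f/f replicate 2. Leaving out either Steap4AKO library also moved the pathway split, but the spread then comes from the controls alone. Those pathway splits are therefore not given. Without a variance trend the pathway split was 10 and 6 (1128 and 1258 of all genes). It also depended on the scaling: 26 pathway genes were higher and 4 lower with libraries scaled to the sum of the table (2486 and 812 of all genes), and scaled to the adipocyte markers 26 and 3 (1941 and 479 of all genes). Their median log2 difference was 0.12. In both Steap4AKO libraries 25 of the 112 were above every control (22.3%) and 10 were below (8.93%), against 14.1% and 14.4% of all genes tested.

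The gene that fell was Camk2a, a calcium-dependent protein kinase. Its values were 356.9, 1813.0, 1221.0 and 2096.3 in the controls and 37.5 and 53.7 in Steap4AKO replicates 2 and 3, a log2 difference of -4.63 (SE 0.65, limma adjusted p = 0.0466). Its order over the libraries was that of the skeletal muscle sums, lowest in Steap4AKO replicate 2 and highest in Steap4f/f replicate 6, and the part of muscle in this difference was not tested. The call was lost without any 1 of Steap4f/f replicates 2, 5 and 6 or either Steap4AKO replicate, and also with a pseudocount of 0.5, a mean of at least 50, without a variance trend or with a robust prior. Camk2b, a second isoform, named after its values were seen, had 274.8 to 694.6 in Steap4f/f and 151.6 and 136.8 in Steap4AKO (adjusted p = 0.0782 in limma).

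Of the 35 genes of Gs and cAMP signalling, none passed the test in limma, and the median log2 difference was 0.01. At an unadjusted p under 0.05, 3 were higher and 2 lower (8.57% and 5.71%, against 8.45% and 9.66% of all genes tested). Gnas, which encodes the Gs alpha subunit, was the most abundant of the 35, with 23270.9 to 27095.9 in Steap4f/f and 16252.6 and 20854.8 in Steap4AKO, a log2 difference of -0.47 (SE 0.18, adjusted p = 0.242 in limma). On the authors' scaling both Steap4AKO libraries lay below all controls, the opposite of Oxtr and Adcyap1r1. Adcy5, an adenylyl cyclase, had 5038.5 to 6671.1 against 5772.8 and 5133.6. Prkar2b, the regulatory subunit of protein kinase A typical of adipocytes, had 14327.5 to 18883.9 against 11449.7 and 19798.6. Pde3b, the phosphodiesterase through which insulin lowers cAMP in fat cells, had 6124.1 to 7974.3 against 3972.5 and 8092.1. In the last 2 the Steap4AKO libraries stood on either side of the controls.

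Of the 36 genes of Gq and calcium signalling, 6 were higher and 2 lower at an unadjusted p under 0.05, Camk2a among the latter. These were 16.7% and 5.56%, against 8.45% and 9.66% of all genes tested, and the median log2 difference of the list was 0.13. Among the genes of this list with the highest level, Rhoa, a small GTPase of contraction, had means 1.07-fold apart (adjusted p = 0.691 in limma). Mylk, the kinase that phosphorylates myosin light chain in smooth muscle, had 1312.2 to 1368.1 in Steap4f/f, 10171.9 in Steap4AKO replicate 2 and 1624.0 in replicate 3 (adjusted p = 0.222 in limma). It followed the smooth muscle marker Myh11 in being highest by far in replicate 2. Gnaq, the Gq alpha subunit to which the oxytocin receptor couples, named after its values were seen, had 1239.7, 1364.8, 1367.1 and 1349.7 in the controls and 1818.9 and 1927.9 in the Steap4AKO pair, a log2 difference of 0.49 (SE 0.12, adjusted p = 0.114 in limma). Itpr2, a channel that releases calcium from internal stores, also named after its values were seen, had 317.2 to 494.5 in Steap4f/f and 837.6 and 1019.3 in Steap4AKO, a log2 difference of 1.19 (SE 0.24, adjusted p = 0.0705 in limma). Both genes were above every control in both Steap4AKO libraries, at nearly the same level in the 2, and neither passed the threshold.

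Of the 23 genes of receptor desensitisation and G protein shut-off, none passed the test in limma, and the median log2 difference was 0.36. At an unadjusted p under 0.05, 8 were higher and 1 lower (34.8% and 4.35%, against 8.45% and 9.66% of all genes tested). In Steap4AKO replicate 2 the median log2 difference was 0.66 and in replicate 3 it was 0.09. Rgs5, a GTPase activator of pericytes, had 3301.3 to 5589.2 in Steap4f/f and 6331.8 and 8375.0 in Steap4AKO (adjusted p = 0.176 in limma). Gnai2 and Gnai1, inhibitory G alpha subunits, had means 1.29-fold and 1.04-fold apart, and Arrb1, an arrestin that uncouples receptors, had 1560.7 to 2354.5 against 3281.2 and 2353.2, so that replicate 3 lay within the controls. Rgs19, another GTPase activator, named after its values were seen, had 308.2 to 446.6 in Steap4f/f and 704.8 and 740.0 in Steap4AKO (adjusted p = 0.0705 in limma).

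**Figure D3:**
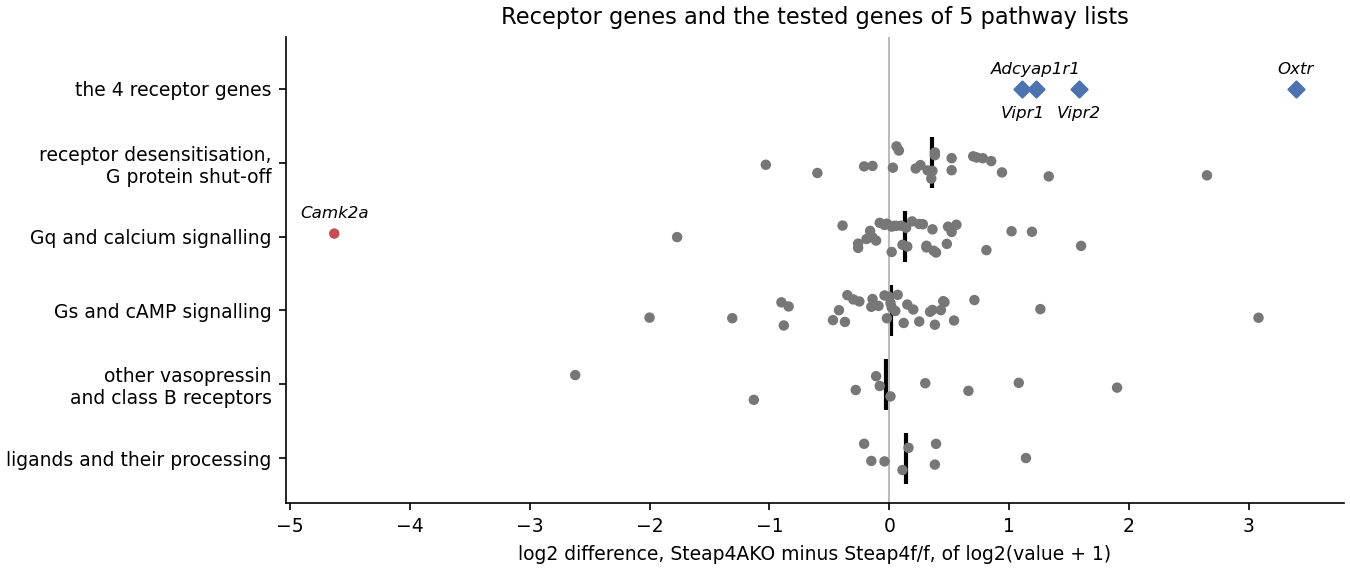
Log2 differences, Steap4AKO minus Steap4f/f, of the 4 receptor genes (diamonds) and of the tested genes of 5 pathway lists (dots, with vertical offsets for visibility). Black bars are list medians, from -0.03 to 0.36, and Camk2a, in red at -4.63, is the 1 gene past the threshold in these lists.

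Genes next to the receptor genes were examined because neighbours can share reads or regulation. Of the 11 annotated genes within 200 kb of Oxtr, 5 were measured and none overlapped it. The nearest, Cav3, encodes the caveolin of muscle and lies end to end with Oxtr on the opposite strand, 810 bases away (chromosome 6, 112459505 to 112472872). Its values were 24.5, 123.6, 102.6 and 235.6 in the controls and 1.4 and 18.0 in the Steap4AKO pair, a log2 difference of -3.79 (limma adjusted p = 0.143), opposite in direction to Oxtr. Gm15519, a processed pseudogene 73.7 kb upstream of Oxtr, was at 110.4, 170.4, 284.2 and 146.2 in the controls and at 373.7 and 454.3 in the Steap4AKO pair. Its log2 difference was 1.3 (adjusted p = 0.147 in limma) without overlap between groups. As a processed pseudogene it can take reads from its parent gene, so that its value is uncertain. Lmcd1, a LIM domain gene 143 kb away, had 327.1 to 690.6 against 296.8 and 290.5, below every control (adjusted p = 0.246 in limma). Gm5578 and Rad18 overlapped between groups. The neighbours thus did not share 1 direction, and none had a positive log2 difference as large as that of Oxtr.

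Around Adcyap1r1, 2 of 9 annotated genes were measured, the water channel Aqp1 and Mindy4, and both overlapped between groups, with log2 differences of 0.39 and -0.74. Around Vipr1, 10 of 21 were measured, and the muscle genes Klhl40 and Hhatl had log2 differences of -5.95 and -3.75 (limma adjusted p = 0.0658 and 0.117). Sec22c, which lies 7.09 kb from Vipr1, had 134.5 to 306.9 in Steap4f/f and 387.6 and 307.5 in Steap4AKO, and the hormone gene Cck, which failed the limit for testing, had 0 to 6.6 against 41.6 and 3.1. Around Vipr2, 4 of 25 were measured. Zfp386, Wdr60 and Esyt2 overlapped between groups, and the antibody segment Ighv1-82 had 43.6 in Steap4AKO replicate 2, was at most 1.4 in the controls and was at 0 in replicate 3.

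**Figure D4:**
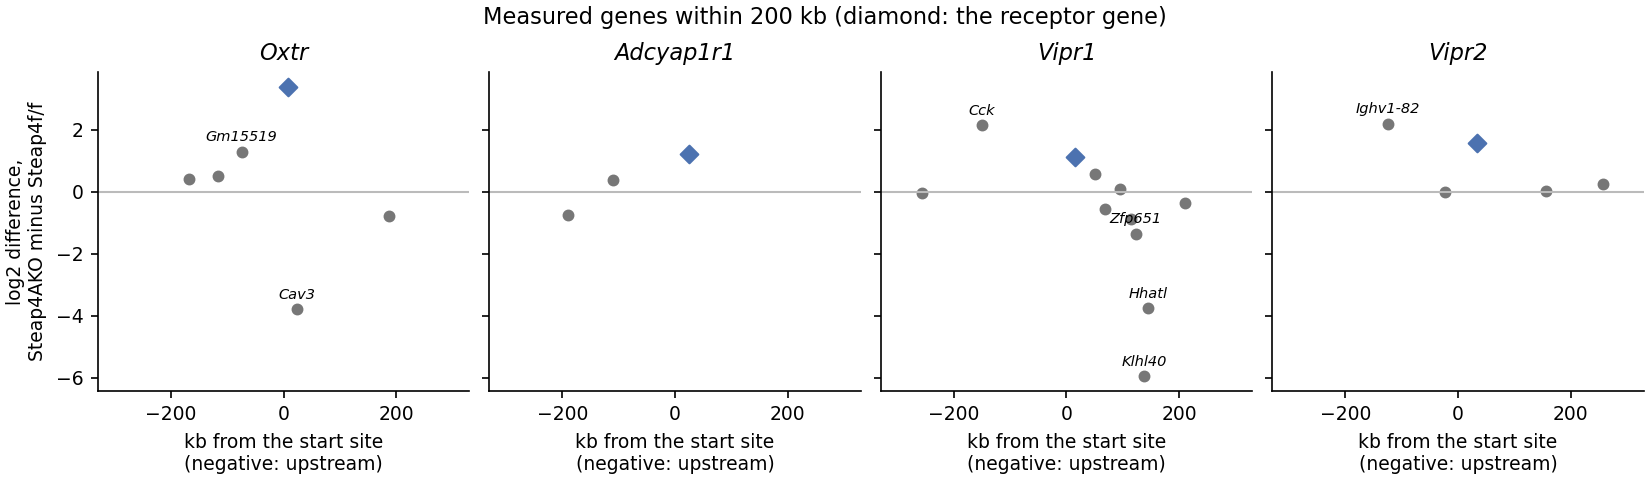
Log2 difference, Steap4AKO minus Steap4f/f, of each measured gene within 200 kb of a receptor gene against the distance of its midpoint from the receptor gene's start site, negative upstream. Diamonds are the receptor genes, of which Oxtr at 3.39 lies next to Cav3 at -3.79.

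The genes most like Oxtr in pattern, by Pearson's r of log2(value + 1) over the 6 libraries among 12330 genes with a mean of at least 50, were Tmem154, Tmppe, Tm9sf3, Cog5 and Sel1l, with r of 0.9993 to 0.9968. Sel1l, a component of protein degradation at the endoplasmic reticulum, was at 1753.5, 1882.3, 2119.9 and 2006.9 in the controls and at 3111.6 and 2570.0 in the Steap4AKO pair. Tmem154 was at 41.7, 44.6, 54.9 and 49.9 in the controls and at 116.4 and 86.0 in the Steap4AKO pair. Like Oxtr, both were lowest in Steap4f/f replicate 1, highest of the controls in replicate 5 and higher in Steap4AKO replicate 2 than in replicate 3, but over a far smaller range. Those most like Adcyap1r1 were Stam2, Tmem104, Dnajc5, Apba1 and Pcdh1, with r of 0.9964 to 0.9902. Apba1, an adaptor protein of neurons, had 151.1 to 173.9 in Steap4f/f and 346.1 and 290.1 in Steap4AKO. With 6 libraries many genes correlate by their group difference alone, and 543 genes had an r above 0.9 with Oxtr and 368 with Adcyap1r1. These correlations are a description of 6 libraries that share depth and tissue composition.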

How the data were processed

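The members and lists were chosen with earlier results of these data known. The unit of the deposited values is a signal: the authors normalized their gene counts with DESeq2, as the table's name states. Per the submitters' processing notes, the authors used DESeq2 1.12.4, RSEM 1.3.3, STAR 2.7.0e and R 4.2.0, with the builds GRCm38 and mm10. Their annotation was not given in the sources used here. At the best step, 34.4 to 59.0% of low values lay within 0.1 of a whole read, so no count test was run. Symbols and positions came from GENCODE M21 (15125 of 15176 genes) and promoter windows from RefSeq on GRCm38.p6.

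Differences of log2(value + 1), which understate changes of low genes, were tested two-sided with limma 3.58.1 in R 4.3.3 (variance trend, 2 groups, 15006 genes with a mean of at least 10, Benjamini-Hochberg threshold 0.05). Folds are ratios of group means. The fit was tested on simulated data. Named genes were the members, Steap4, called genes and the 4 highest of each pathway list, the 2 highest markers of each of 13 lists, measured neighbours within 200 kb and the 5 genes most like Oxtr or Adcyap1r1. Some of these are not reported here. Genes outside this rule are marked as named after their values were seen, except markers given because they were at 0 or as exceptions to a count. The counts of ratios to single markers were added after the data were seen. Alternatives were other pseudocounts, filters, scalings, variance models and each library left out.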

Additional observations from a re-analysis of the deposited data

Results flagged for a closer look

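Among 81 named genes, 4 had a Steap4f/f library far from the other 3, where chance alone flags about 1 in 20. Steap4 had 17017.9 in Steap4f/f replicate 1, against 8310.0 to 9417.2 in the others. Trak1, a neighbour of Vipr1, had 2313.2 in Steap4f/f replicate 1, against 2914.7 to 3038.1. The mesothelial marker Upk3b had 167.1 in Steap4f/f replicate 6, against at most 2.2, and the basal epithelial marker Trp63 had 112.3 in the same library, against 73.1 to 78.5. None of the 4 receptor genes had such a library.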

How the results depend on the processing

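The log2 differences of Oxtr, Adcyap1r1, Vipr1 and Vipr2 kept their sign under every pseudocount, scaling and left-out library tried. With libraries left out in turn, that of Oxtr ranged from 2.58 (without Steap4AKO replicate 2) to 4.2 (without Steap4AKO replicate 3). Scaled to the adipocyte markers, that of Adcyap1r1 was 1.55, while the median of all genes was 0.35, against 0.21 when scaled to the sum of the table and 0.02 as reported. Counts of calls in limma were not stable. As reported, 6 genes were higher and 65 lower. These counts were 0 and 1 with a pseudocount of 0.5, a mean of at least 50 or a robust prior, each also with 0 pathway genes lower. Oxtr and Adcyap1r1 were thus not called higher in these settings. Nor were they without any 1 of Steap4f/f replicates 2, 5 and 6, where 0 genes were higher. The counts were 18 and 105 with a pseudocount of 5, and 30 and 151 when scaled to the adipocyte markers, with 1 pathway gene higher (Itpr2). Without the variance trend 4 genes were lower and 0 pathway genes. With 1 library left out, 0 to 455 genes were higher and 1 to 366 lower, and 0 to 4 pathway genes were higher and 0 to 2 lower. The 455, 366 and 4 came without Steap4AKO replicate 3. With either Steap4AKO library left out the spread comes from the controls alone, and the lone Steap4AKO library is assumed to vary like them. At an unadjusted p under 0.05, 518 to 2486 genes were higher and 479 to 1640 lower over all settings. No paired analysis was possible because the labels give no pairing.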
